A study of Caenorhabditis elegans with 2 samples.

Results

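The nuclear hormone receptor genes of Caenorhabditis elegans were examined for peaks of the Hox protein CEH-13 near their 5′ ends. They are the protein-coding genes whose name starts with nhr- in the WBcel235 annotation, apart from nhr-23 and nhr-25, which gave 267 of 19973 protein-coding genes. The rule rested on names and used no measured value, but it was chosen with earlier results of these data known. Each gene was given the strongest peak whose summit lay from 1000 bp upstream to 500 bp downstream of its annotated 5′ end. Anti-GFP chromatin immunoprecipitation followed by sequencing (ChIP-seq) was carried out on 2 biological replicates, and no group of another genotype, treatment or age was compared. Both came from whole early embryos of strain OP756, of mixed sex and aged 2 hours, obtained by egg bleaching. The strain carries unc-119(tm4063) and the integrated transgene wgIs756, in which ceh-13 is fused to TY1, EGFP and 3xFLAG beside a rescuing unc-119(+), so both replicates come from 1 transgenic line. Whole embryos were used, so cells with and without the protein were measured together. Of the 4 deposited peak lists, those of replicate 1, replicate 2 and the pooled replicates hold 30000 peaks each, and the list thresholded by the irreproducible discovery rate (IDR) holds 512, which are the 512 strongest of the pooled list. Read depth is unknown, and a peak's signal is the authors' score, comparable only within a list.

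Nuclear hormone receptors are transcription factors with a zinc-finger DNA-binding domain and, in most cases, a ligand-binding domain that can take up lipids and other small molecules. The worm has a much larger family than flies or mammals, and most of its members are thought to descend from an ancestor like HNF4, a receptor of liver and gut in mammals. Known members act in fat metabolism, detoxification, moulting, sex determination and embryonic development. CEH-13 is the worm's labial-type Hox protein and acts in anterior patterning of the embryo.

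The sequences at 5 of the strongest peaks are shown first, as a description. The first pair passed the IDR threshold and the other 3 did not. Different features are marked in each set, so the windows do not show what separates IDR peaks from others. Each runs 201 bases, from 100 bp before to 100 bp after the summit of the pooled peak, on the plus strand of WBcel235. In the first pair the capitals mark an annotated tRNA gene, and in the other 3 they mark GAGAGA or its reverse complement. The nhr-255 window is chrX:15741965-15742165, and its capitals are ZK678.t1, a tRNA-Leu gene on the plus strand. The nhr-41 window is chrIV:1388157-1388357, at an internal transcript start described below, and its capitals are Y104H12A.t1, a tRNA-Glu gene on the minus strand. The windows upstream of nhr-48 (chrX:15707582-15707782), nhr-1 (chrX:17513628-17513828) and nhr-35 (chrX:4532004-4532204) hold no annotated gene at the summit.
nhr-255: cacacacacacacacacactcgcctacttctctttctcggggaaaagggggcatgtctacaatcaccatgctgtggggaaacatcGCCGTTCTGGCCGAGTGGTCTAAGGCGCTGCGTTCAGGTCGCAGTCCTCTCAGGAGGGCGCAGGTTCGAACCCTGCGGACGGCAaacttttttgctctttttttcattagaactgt
nhr-41: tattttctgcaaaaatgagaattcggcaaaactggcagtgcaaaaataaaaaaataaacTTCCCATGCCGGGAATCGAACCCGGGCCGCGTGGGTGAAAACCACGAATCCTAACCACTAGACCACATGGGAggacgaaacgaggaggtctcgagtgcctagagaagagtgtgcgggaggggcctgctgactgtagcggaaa
nhr-48: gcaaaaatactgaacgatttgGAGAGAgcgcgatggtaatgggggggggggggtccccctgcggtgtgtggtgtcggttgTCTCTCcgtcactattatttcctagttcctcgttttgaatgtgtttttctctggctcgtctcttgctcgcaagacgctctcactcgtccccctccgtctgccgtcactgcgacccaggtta
nhr-1: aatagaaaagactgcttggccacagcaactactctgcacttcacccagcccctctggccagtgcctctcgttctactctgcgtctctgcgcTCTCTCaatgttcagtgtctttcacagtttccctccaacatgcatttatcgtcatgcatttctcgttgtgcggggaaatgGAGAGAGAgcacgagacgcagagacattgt
nhr-35: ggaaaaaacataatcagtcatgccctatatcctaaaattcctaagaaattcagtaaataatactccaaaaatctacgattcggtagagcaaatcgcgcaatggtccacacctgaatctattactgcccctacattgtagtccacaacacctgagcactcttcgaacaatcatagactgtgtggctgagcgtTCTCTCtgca
Over all windows of this size at strongest pooled summits, counted below, GAGAGA was in 17% at receptor genes and 15.4% at other genes. In the last 3 windows shown it was found at 2, 3 and 1 positions, overlapping matches counted separately. None of them held AGGTCA, the half-site of many nuclear receptors, TGATNNAT, the site bound jointly by Hox and PBC proteins, the homeodomain site TAATTA or the GC box GGGCGG, on either strand; TAATTA reads the same on both.

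Only 1 nuclear hormone receptor gene, nhr-255 on the X chromosome, had a peak in the IDR list. That is 0.375% of the 267 genes (95% Wilson interval 0.0661 to 2.09), against 1.66% of the 19706 other protein-coding genes, a difference of -1.29 percentage points (Newcombe interval -1.65 to 0.435). The nhr-255 peak had a signal of 237 in the pooled list (rank 92), 159 in replicate 1 (rank 72) and 74 in replicate 2 (rank 157), with q-values of 0.00136, 0.00131 and 0.00227. It was thus high in both replicates. Its pooled summit, at X 15742065, lay 545 bp upstream of the nhr-255 5′ end and 15 bp inside the tRNA-Leu gene, which spans X 15742050 to 15742133. Among the 94 strongest pooled peaks of the family it was the only one within 500 bp of a tRNA, snoRNA, snRNA or rRNA gene. That share is 1.06% (interval 0.188 to 5.78), against 2.69% of the 7999 other genes with a pooled peak. Small RNA genes of these kinds lay that close to 274 of all 512 IDR peaks (53.5%). They lay as close to the strongest IDR peak of 82 of the 328 other genes that had one (25%). Whether reads from other copies of the tRNA gene add to this peak was not tested.

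A single further receptor gene reached the IDR list when the start of any annotated transcript was allowed. This was nhr-41, related to the vertebrate testicular receptors, which has 5 distinct transcript starts. At its annotated 5′ end it had only a pooled peak of signal 34.5 (rank 12311, q 0.686). At a start 1882 bp away it had a peak at IV 1388047 to 1388466 with a pooled signal of 135 (rank 235, q 0.00136), 84 in replicate 1 (rank 229) and 56.3 in replicate 2 (rank 240). The replicate summits lay within 50 bp of the pooled one. The summit lay in an intron of nhr-41 and 30 bp inside the tRNA-Glu gene on the minus strand (IV 1388216 to 1388287). Both receptor genes with an IDR peak thus had its summit inside a tRNA gene. A tRNA gene overlapped the window of 2 receptor genes (0.749%) at their 5′ ends, nhr-255 and nhr-193, against 0.731% of the other genes, and nhr-193 had no pooled peak.

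Below the IDR threshold, 3 more receptor genes had a pooled peak with q under 0.05, which makes 4 of 267 (1.5%, interval 0.584 to 3.79) against 3.27% of the other genes (difference -1.77 points, interval -2.72 to 0.532). The first was nhr-48, which belongs with daf-12 and nhr-8 to the subfamily related to the vitamin D and pregnane X receptors. Its peak (X 15707472 to 15707891) had a signal of 78.3 in the pooled list (rank 642, q 0.0039), 32.4 in replicate 1 (rank 3288, q 0.229) and 44.3 in replicate 2 (rank 392, q 0.00383). The summits lay 531, 531 and 533 bp upstream of the 5′ end in the 3 lists, so the position recurred closely while the rank was high in replicate 2 and moderate in replicate 1. The 5′ ends of nhr-48 and nhr-255 are 34397 bp apart on the X chromosome.

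The second was nhr-47, the strongest member on chromosome V. Its pooled peak (V 5505060 to 5505479) had a signal of 73.8 (rank 760, q 0.0112), with the summit 17 bp downstream of the 5′ end in a UTR exon of nhr-47. In replicate 2 the strongest peak lay at the same place, 11 bp downstream, with a signal of 29.6 (rank 1759, q 0.133). In replicate 1 it lay elsewhere in the window, 866 bp upstream, with 51.7 (rank 591, q 0.00423). The pooled peak also fell in the window of dnj-19, a DnaJ chaperone gene, so it cannot be assigned to either gene alone. The last of the 4 was nhr-1, whose peak (X 17513518 to 17513937) had a signal of 68 in the pooled list (rank 943, q 0.0355), 42.2 in replicate 1 (q 0.0333) and 22.1 in replicate 2 (q 0.501). Its summits lay 335, 356 and 302 bp upstream.

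The next members in order of pooled signal did not pass q under 0.05. The upstream peak of nhr-35 (X 4531894 to 4532313) had 62.7 in the pooled list (q 0.0578), 29.6 in replicate 1 and 30.9 in replicate 2, with summits 587, 630 and 580 bp upstream. The signal of nhr-65 on chromosome V was 60.1 (rank 1468), and its strongest summits in the replicates lay apart, at 103 bp downstream and 730 bp upstream. The peak in an intron of nhr-239 had 55.9 in the pooled list and 54.9 in replicate 1 (rank 511, q 0.0049), but there was no peak in its window in replicate 2. On chromosome V followed nhr-15 with 54.2, nhr-142 with 53.3 and nhr-58 with 50 in the pooled list. The first of these 3 shared its peak with phf-10 and the second with F44E7.9, whereas nhr-58 had its summit 24 bp downstream of its own 5′ end. All 3 had a peak in both replicate lists.

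**Figure D1:**
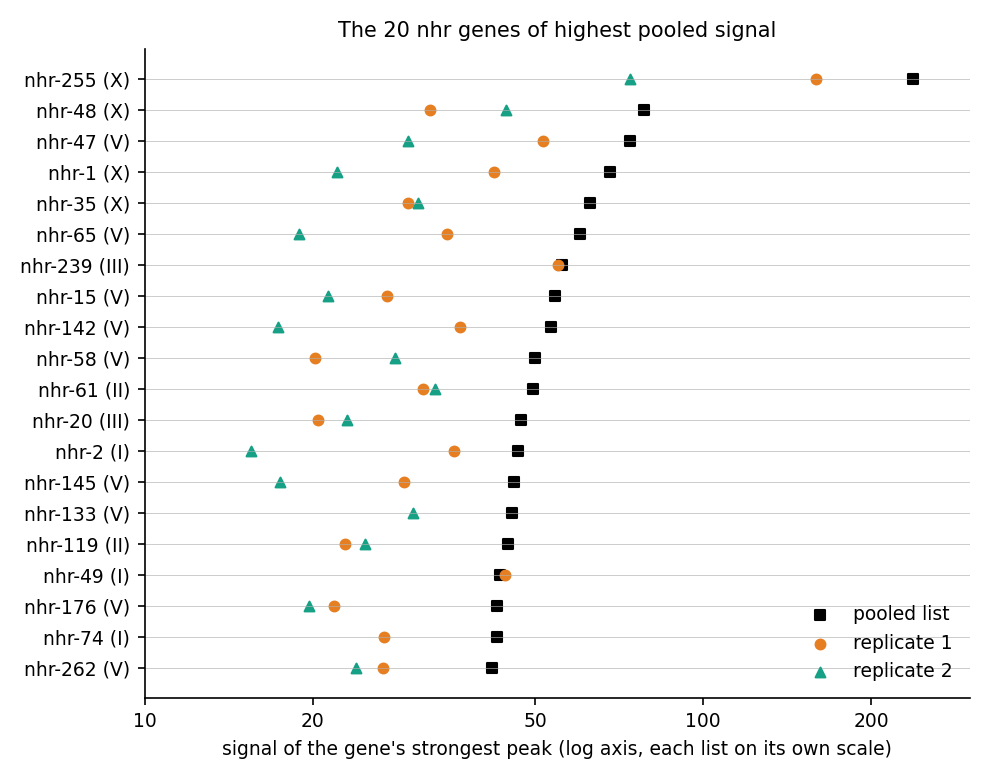
Signal of the strongest peak within the window for the 20 receptor genes of highest pooled signal, with the chromosome in brackets; squares are the pooled list, circles replicate 1 and triangles replicate 2, on a log axis, and a missing symbol means no peak in that list. The value of 237 for nhr-255 stands apart from 78.3 for nhr-48 and the others, and nhr-239 has no peak in replicate 2.

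Over the whole family, a peak of any strength was common. In the pooled list 94 of 267 receptor genes had one (35.2%, interval 29.7 to 41.1), against 40.6% of the other genes. The replicate 1 list had one at 88 (33%) against 40.8%, and the replicate 2 list at 100 (37.5%) against 40.1%. Both replicate lists had a peak at 46 (17.2%, interval 13.2 to 22.2) against 23%. The difference from the other genes was -5.39 points in the pooled list (interval -10.9 to 0.556), -7.83 in replicate 1 (interval -13.2 to -1.94) and -2.62 in replicate 2 (interval -8.25 to 3.36). For a peak in both lists it was -5.82 (interval -9.91 to -0.795). The interval excluded 0 in replicate 1 and for both lists together, and included it in the pooled list and in replicate 2. It also included 0 once any pair of replicate summits had to lie within 200 bp (-3.86 points, interval -7.21 to 0.565). These intervals treat genes as independent and do not cover the difference between embryo collections. Spread evenly over the genome, the pooled peaks would put a mean of 0.449 peaks in each window of 1501 bp. That is a mean count and not a share of windows with a peak, so it cannot be set directly beside the shares above. Of the receptor genes' windows 27.3% held 1 pooled peak and 7.87% held 2, against 31.2% and 8.36% of the other genes' windows.

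Among stronger pooled peaks the share of receptor genes over all chromosomes was lower too, although no intervals were computed for these shares. Of the 1000 strongest pooled peaks, some lay in the windows of 4 receptor genes (1.5%) against 2.95% of other genes, of the strongest 5000 in those of 16 (5.99%) against 10.3%, and of the strongest 10000 in those of 32 (12%) against 17.6%. For the strongest 10000 the shares were 8.38% against 11.6% on V and 18% against 19.6% on the other chromosomes. On V the strongest 10000 gave 7.19% against 12.2% in replicate 1 and 9.58% against 12.9% in replicate 2. On the other chromosomes they gave 10% against 19.2% in replicate 1 and 22% against 18.1% in replicate 2. The median signal over the 94 genes with a pooled peak was 32 (interval 29.7 to 35.9, range 23.7 to 237), against 34.8 (34.5 to 35.1) over 7999 other genes. The receptor genes' interval included 34.8. In replicate 1 the median was 20.5 against 22.9, and in replicate 2 it was 17.6 against 18.2.

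The replicates often named different receptor genes. No peak was present in any of the 3 lists at 117 genes, and all 3 lists had one at 39. A peak in replicate 1 and none in replicate 2 was found at 42 genes (15.7%, against 17.7% of the other genes), 22 of them also with a pooled peak. The reverse was found at 54 (20.2% against 17%), 25 of them with a pooled peak, and 8 genes had a peak only in the pooled list. In both replicate lists but not in the pooled one stood 7 genes, among them nhr-67, the worm's tailless-type receptor, which acts in the anchor cell. Of the 46 genes with a peak in both lists, 24 had their strongest summits within 200 bp of each other (52.2%, against 55% of the other genes). Counting any pair of peaks in the window, 31 did (67.4% against 67.1%), among them nhr-47 and nhr-65, whose strongest summits lay apart. Across the 46 genes the signals of the 2 replicates had a Spearman rho of 0.344 (0.362 over 4541 other genes), given as a description, since the lists were called with the same control alignment.

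**Figure D2:**
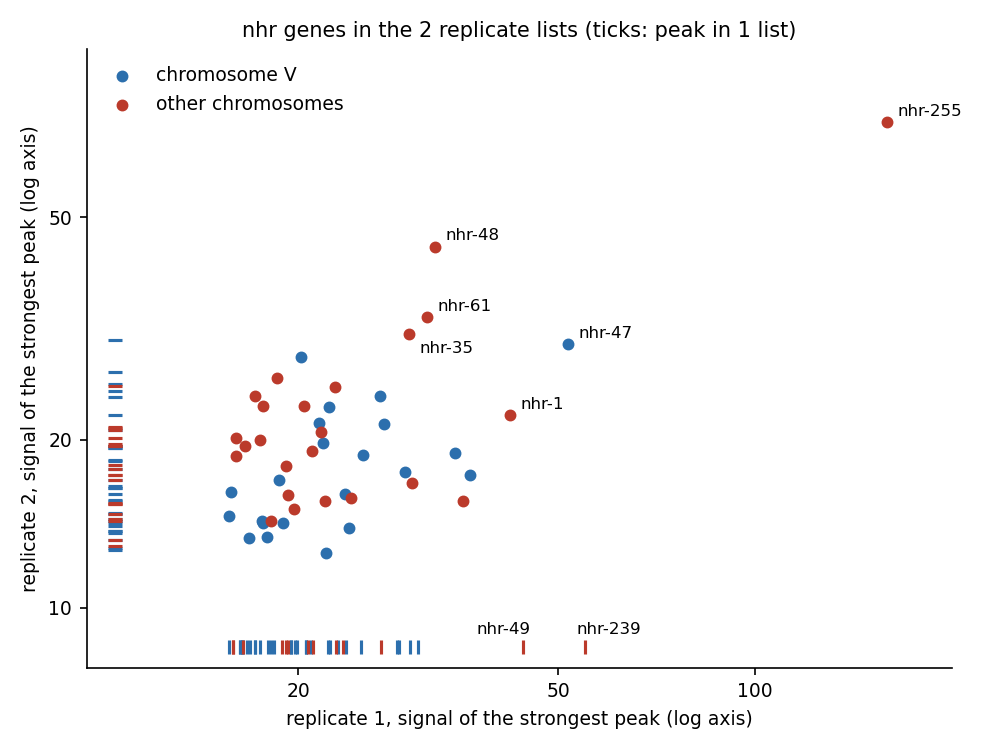
Signal of the strongest peak in replicate 1 (x axis) and replicate 2 (y axis), both on log axes, for each receptor gene; blue is chromosome V, red is the other chromosomes, and ticks along the axes are genes with a peak in 1 replicate list. Apart from nhr-255 at 159 and 74, the 46 genes with both peaks form a loose cloud, and nhr-239 and nhr-49 are high in replicate 1 with no peak in replicate 2.

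Chromosome V carries 167 of the 267 receptor genes (62.5%), against 24.5% of the other genes. The remaining 100 comprise 22 on chromosome I, 15 on II, 8 on III, 33 on IV and 22 on X. Receptor genes on V had a pooled peak at 55 of 167 (32.9%, interval 26.3 to 40.4) and those elsewhere at 39 of 100 (39%, interval 30 to 48.8), a difference of -6.07 points (Newcombe interval -17.9 to 5.6). The other genes had a pooled peak at 32.6% on V and 43.2% elsewhere, a difference of -10.6 points (interval -12.1 to -9.05). For a peak in both replicate lists the receptor genes stood at 22 of 167 on V (13.2%) and 24 of 100 elsewhere (24%), a difference of -10.8 points (interval -21 to -1.39), and the other genes at 16.4% and 25.2%, a difference of -8.73 points (interval -9.97 to -7.46). Receptor genes on V thus had a peak in both lists less often than receptor genes elsewhere, while in the pooled list the interval of the difference included 0. With any pair of summits of the 2 lists required to lie within 200 bp the receptor genes' difference was -7.02 points and its interval included 0 (-16.1 to 0.922). That of the other genes was -6.28. With the strongest peaks required to do so the receptor genes' difference was -8.01 points (interval -16.6 to -0.809), against -5.03 for the other genes. In the single lists the receptor genes' difference was -6.46 points in replicate 1 (interval -18.2 to 5.02) and -12.1 in replicate 2 (interval -23.9 to -0.0883). The other genes stood at -10.5 and -8.9 points.

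Set against other genes of V or of the other chromosomes, the receptor genes' shares differed by less than counting error. On V the difference in the pooled list was 0.347 points (interval -6.46 to 7.9), and in both replicate lists it was -3.28 (interval -7.72 to 2.78). On the other chromosomes it was -4.19 (interval -13.2 to 5.64) and -1.18 (interval -8.53 to 8.08). With each receptor gene given the share of the other genes on its own chromosome, 96 would have had a pooled peak where 94 did, and 51.5 a peak in both lists where 46 did. For q under 0.05 that count was 6.97 where 4 were observed, and for the IDR list 3.44 where 1 was observed. No receptor gene on V had an IDR peak, and a count of 0 in 167, read as up to 3 counts, allows a share of up to 1.8% (the Wilson limit is 2.25%), above the 1.02% of the other genes on V. The median pooled signal was 29.9 over the 55 receptor genes on V (interval 27.7 to 34.4, highest 73.8) and 36.1 over the 39 elsewhere (interval 29.4 to 39.8), against 32.5 and 35.3 for the other genes.

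**Figure D3:**
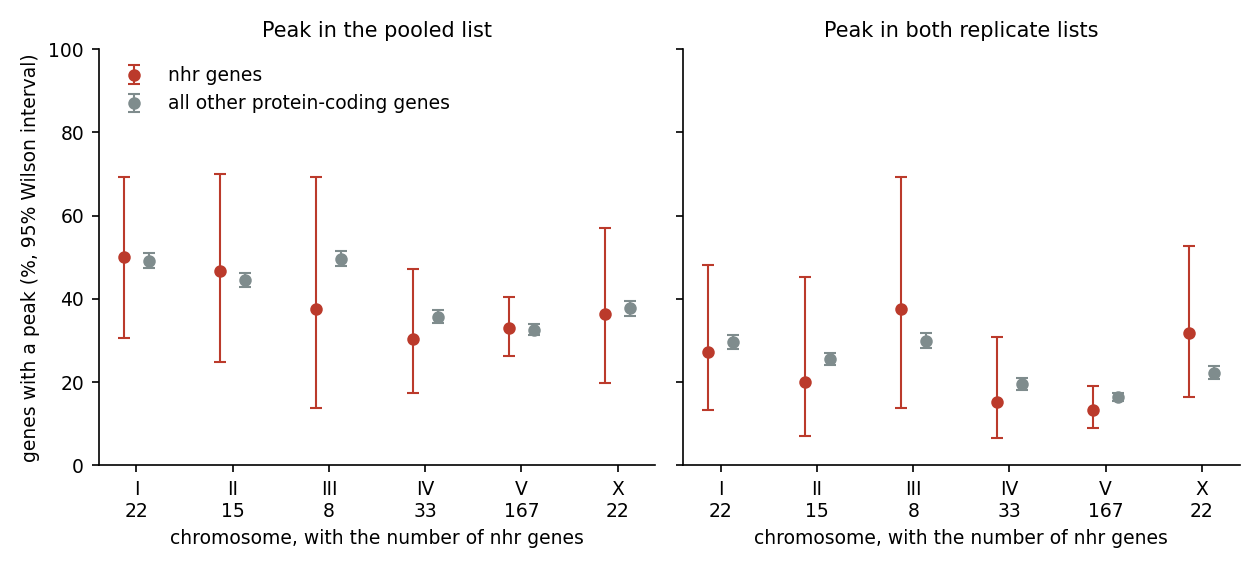
Share of genes with a peak in the pooled list (left) and in both replicate lists (right) on each chromosome, in percent, for receptor genes (red) and all other protein-coding genes (grey); points are shares, bars are 95% Wilson intervals, and the number of receptor genes stands under each chromosome. On V the receptor genes stand at 32.9% and the other genes at 32.6% in the pooled list.

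Receptor genes in the middle of a chromosome had a pooled peak less often than those nearer its ends. Each chromosome was cut into 3 equal parts, a split chosen after values were seen. Of the 71 receptor genes in the middle part of a chromosome 15 had a pooled peak (21.1%), and of the 196 in the outer parts 79 had one (40.3%), a difference of -19.2 points (interval -29.7 to -6.47). The other genes stood at 35% and 44%, a difference of -9.01 points (interval -10.4 to -7.62). On V the receptor genes stood at 6 of 41 in the middle (14.6%) and 49 of 126 outside it (38.9%), against 28.2% and 35.1% of the other genes there. Both replicate lists had a peak at none of those 41, which by the same 3 counts allows a share of up to 7.32% (the Wilson limit, drawn in the plot by position, is 8.57%), against 22 of 126 in the outer parts (17.5%) and 14.8% of the other genes in the middle of V. Over all chromosomes the receptor genes' difference was -21.9 points in replicate 1 (interval -31.7 to -9.62) and -4.97 in replicate 2 (interval -17.1 to 8.33). That of the other genes was -7.84 and -7 points. On V alone the receptor genes' difference was -21.1 points in replicate 1 (interval -32.7 to -5.21) and -14.6 in replicate 2 (interval -27.8 to 2.18). The other genes of V stood at -6.05 and -5.19 points. On the other chromosomes the pooled list had a peak at 9 of 30 in the middle (30%) and 30 of 70 outside it (42.9%), a difference of -12.9 points whose interval included 0 (-30.6 to 8.09). The other genes stood at 37.1% and 47% there. In replicate 2 the receptor genes of these chromosomes had the opposite direction, at 7.14 points (interval -13.3 to 27.2), against -7.76 for the other genes. Whether the split of the receptor genes is larger than that of the other genes was not tested. These intervals treat genes as independent, but receptor genes in the middle of V partly lie in the runs of neighbours described below. The runs from nhr-161 to nhr-42 (7 genes), nhr-263 to nhr-149 (4) and nhr-206 to nhr-136 (7) had no pooled peak. The run from nhr-44 to nhr-143 (4 genes) had 2. All of these lie in the middle of V, and the split without them was not tested. Of the 6 receptor genes in the middle of V with a pooled peak, the highest signal was 36.9, at nhr-129.

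**Figure D4:**
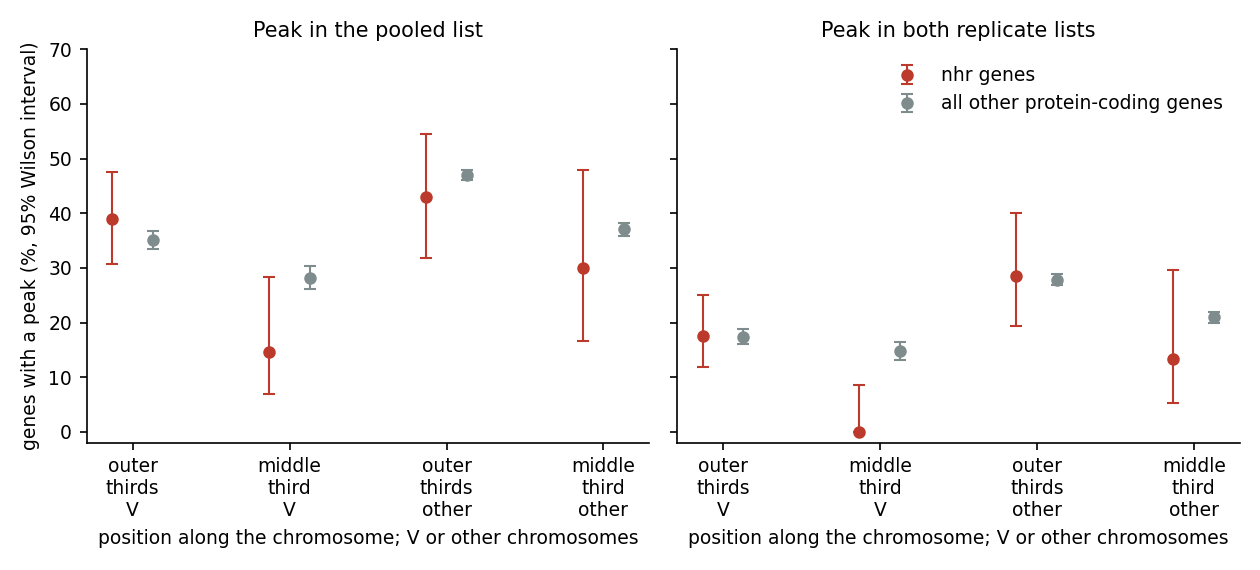
Share of genes with a peak in the pooled list (left) and in both replicate lists (right), in percent, for genes in the outer parts and in the middle part of chromosome V and of the other chromosomes; red is receptor genes, grey all other protein-coding genes, points are shares and bars 95% Wilson intervals. In the middle of V, 14.6% of receptor genes have a pooled peak and none has a peak in both replicate lists.

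Many receptor genes lie in tandem on V. There, 121 of the 167 (72.5%) had the 5′ end of another receptor gene within 10 kb, against 29 of the 100 elsewhere (29%). A pooled peak was present at 32.2% of those on V with such a neighbour and at 34.8% of those without one. Runs of at least 4 receptor genes, each within 10 kb of the next, numbered 11, of which 10 were on V. Those on V held 73 genes, 25 of them with a pooled peak (34.2%), near the 32.6% of the other genes on V. Both replicate lists had a peak at 4 of these 73, against 13.2% of all receptor genes on V and 16.4% of other genes there. All 11 runs held 77 genes, 26 of them with a pooled peak (33.8%) and 5 with a peak in both replicate lists. The longest run, 12 genes from nhr-123 to nhr-131 (V 451451 to 497297), had 4 with a pooled peak, none above 41.7. Of the runs of 9, that from nhr-185 to nhr-124 (V 3844429 to 3886204) had 6 and that from nhr-133 to nhr-96 (V 2210510 to 2235180) had 3. Of the 3 runs of 7, that from nhr-178 to nhr-238 (V 1603906 to 1629432) had 4, and those from nhr-161 to nhr-42 (V 6980587 to 7000651) and from nhr-206 to nhr-136 (V 12092006 to 12109313) had none. The 94 genes had 94 different strongest pooled peaks, so no pooled peak was counted for a pair of receptor genes. In replicate 1, nhr-89 and nhr-169 on chromosome I had the same strongest peak (signal 15.9, rank 29096), which was counted for both.

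Few receptor genes shared a promoter region. The window of 22 of 267 (8.24%) held another protein-coding 5′ end, against 21.8% of the other genes' windows, a difference of -13.6 points (interval -16.3 to -9.59). The pooled peak of 7 of 94 (7.45%) also lay in another gene's window, against 28.6%. Among genes with no other 5′ end in the window, 35.5% of receptor genes and 37.9% of other genes had a pooled peak, a difference of -2.34 points (interval -8.12 to 3.88). For a peak in both replicate lists the same difference was -3.41 (interval -7.66 to 1.85). The windows were also lower in G and C, with a median of 33.9% against 35.2% for the other genes. In receptor genes with a pooled peak that median was 35.3% and in those without one 33.6%. The part of these properties in the lower share was not tested.

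The strongest pooled summit lay upstream of the 5′ end at 56 of 94 receptor genes (59.6%), against 68.3% of other genes, a difference of -8.73 points (interval -18.9 to 0.678). By annotation, 48 summits were intergenic, 22 lay in a coding exon of the receptor gene itself (23.4%, against 16.4% of other genes; difference 6.98 points, interval -0.479 to 16.5), 9 in one of its introns and 7 in its UTR. Another 6 lay in a neighbouring protein-coding gene (6.38%, against 18.1%; difference -11.7 points, interval -15.2 to -4.81), among them that of nhr-176, in an intron of the cytochrome P450 gene cyp-35D1. The last 2 lay in genes without a protein product. Examples within the gene were nhr-145 (45.8), nhr-133 (45.4) and nhr-61 (49.6), each with the pooled summit in its own coding exon. At the edges of the window, nhr-74 (42.7 at 498 bp downstream) and nhr-8 (27.2 at 987 bp upstream) lay just inside, and a peak of signal 48 at nhr-102, 507 bp downstream, lay just outside.

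**Figure D5:**
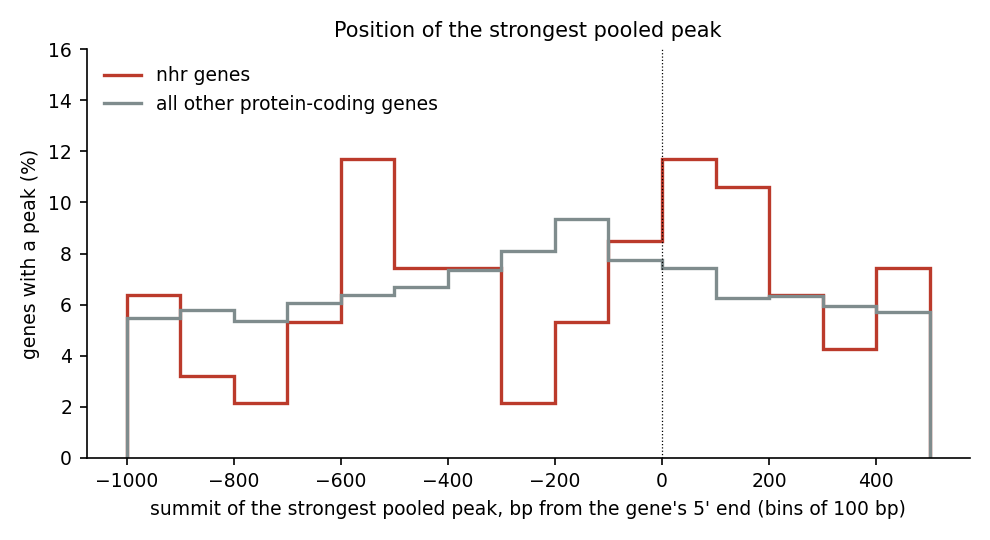
Distance from the gene's 5′ end to the summit of its strongest pooled peak, in bins of 100 bp with upstream negative, as the percent of genes with a pooled peak, for 94 receptor genes (red) and 7999 other protein-coding genes (grey). The receptor genes have 11 summits each from 600 to 500 bp upstream and in the first 100 bp downstream (11.7%), whereas the other genes are highest from 200 to 100 bp upstream (9.35%).

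Among 9 receptors with relatives across animals, 5 had a pooled peak and 2 a peak in both replicate lists, where 40.6% and 23% of all genes outside the family did. Those 2 were nhr-48, which had replicate summits within 200 bp of each other, and nhr-67, which did not. The highest pooled signal was that of nhr-48, followed by nhr-239 and nhr-41, described above. Next came nhr-91, a relative of germ cell nuclear factor, with a pooled signal of 32 and a peak in replicate 2 only, and nhr-8, which acts in xenobiotic defence and cholesterol balance, with 27.2 in a window shared with emc-6, mrpl-1 and mrps-24. The NR4A-type receptor nhr-6, which acts in the spermatheca, had a peak only in replicate 2, of signal 16.9. The Rev-erb-type nhr-85 and nhr-111 had no peak in any list.

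Of 15 receptors with a described role, 8 had a pooled peak and 3 a peak in both replicate lists, and none passed q under 0.05 in the pooled list. Over all genes outside the family these shares were 40.6%, 23% and 3.27%. The 3 with a peak in both lists were nhr-2, nhr-64 and nhr-86. None of them had a pair of replicate summits within 200 bp, which 15.5% of genes outside the family had. The highest pooled signal was that of nhr-2, which is expressed in the early embryo, at 46.6 (rank 4221), with 35.8 in replicate 1 (rank 2175) and 15.5 in replicate 2 (rank 19022). Its summits lay upstream of the 5′ end in replicate 1 and 443 bp downstream in replicate 2. The regulator of fatty acid metabolism nhr-49 had 43.2 in the pooled list and 44.1 in replicate 1 (rank 930, q 0.0188), and no peak in replicate 2. Of its partners, nhr-66 had a pooled signal of 28.6, nhr-80, which controls fatty acid desaturation, had a peak in replicate 1 only (18.9), and nhr-13 had none in any list. In the propionate pathway, nhr-68 had 29.7 in the pooled list and nhr-10 had no peak. Pooled signals of the others were 36.3 at nhr-114, which acts in the response to diet, 34.9 at nhr-64, 30 at nhr-62, which acts in dietary restriction, and 26.5 at nhr-86. The excretory cell regulator nhr-31 had a peak in replicate 2 only and the hypoxia-induced nhr-57 in replicate 1 only. The muscle gene nhr-40 and nhr-69 had none at their 5′ ends, although an internal transcript start of nhr-40, 5405 bp away, had a pooled signal of 46.9.

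Internal starts added few genes. Of the 267 receptor genes, 93 have more than 1 distinct transcript start, and with any start allowed 104 had a pooled peak (39%), against 43.9% of the other genes by the same rule (difference -4.91 points, interval -10.6 to 1.1). At 14 genes the strongest pooled peak then changed, and for 10 of them it was the first. After nhr-41 the highest of these were nhr-179 with 48.8 and nhr-40 with 46.9.

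The receptor genes outside the set, and genes that work with receptors, had the following values, beside 40.6% with a pooled peak and 1.66% with an IDR peak over all genes outside the family. Of 7 other receptor genes 3 had a pooled peak, namely the moulting regulator nhr-23 at 83.1 (rank 561, q 0.00446; 56.4 and 32.2 in replicates 1 and 2), nhr-25 at 46.5 and the sex determination gene sex-1 at 46. The dauer regulator daf-12 and the neuronal receptors fax-1, unc-55 and odr-7 had none in any list. Of 4 coregulator genes 3 had a pooled peak. The histone acetyltransferase gene cbp-1 had 135 in the pooled list (rank 229), 76.6 in replicate 1 and 61.2 in replicate 2. For din-1, a corepressor of DAF-12, the signal was 99.8 in the pooled list (rank 406) and 67.1 in replicate 1. Those din-1 summits lay 465 and 485 bp downstream of the 5′ end. Its strongest peak in replicate 2, of signal 28.6 (q 0.175), lay elsewhere in the window, at -378 bp (upstream). Both cbp-1 and din-1 were in the IDR list. The Mediator subunit gene mdt-15 had 57.5, in a window shared with R12B2.13, and the corepressor gene gei-8 had none. Of 5 genes of dafachronic acid metabolism, hsd-1 had 31.9 and strm-1 had 35.4, and daf-9, daf-36 and dhs-16, which make the ligand of DAF-12, had none.

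Short motifs were counted in the windows of 201 bp around the strongest pooled summits, as matches on either strand in 94 windows of receptor genes and 6879 of other genes. AGGTCA was in 9.57% (interval 5.12 to 17.2) against 5.38%, TGATNNAT in 13.8% (8.26 to 22.2) against 11.4%, and TAATTA in 10.6% (5.88 to 18.5) against 8.27%. GGGCGG was in 9.57% against 7.79% and GAGAGA in 17% against 15.4%, with a median G and C content of 39.8% in both sets. For each of the 5 motifs the share in the other genes' windows lay within the receptor genes' interval. A match is a description of the sequence and not a binding site.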

How the data were processed

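Peak lists from 2 replicates of anti-GFP ChIP-seq were used as deposited. Per the deposited descriptions, the authors called peaks for each replicate and for the pooled reads against 1 control alignment, and thresholded the pooled peaks by IDR. The files use ce11, per the labels, which is the WBcel235 assembly. The aligner, the caller and the IDR cutoff: not given in the sources used here. Control reads were not used. The deposited signal is a score of unstated scale. The deposited −log10 q-value was turned back into a q-value, and the deposited summit offset was added to the peak start. Depth is unknown. Wilson, Newcombe and order-statistic intervals (95%) cover counting error only, and genes are not independent replicates.

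Genes came from Ensembl release 115, sequences and tRNA products from RefSeq. No test was run on the members: the design has 1 group. Python 3.11.15, pandas 2.3.3 and scipy 1.17.1 were used, and the peak assignment was tested on simulated data. The members and gene lists were chosen with earlier results of these data known. Genes named are those with an IDR peak or pooled q under 0.05, the 10 highest pooled signals, the 5 highest on V, the fixed lists, and genes sharing a named peak. Others, the split of chromosomes into 3 parts, the tandem runs, the motif counts and the internal starts were named or added after values were seen. Alternatives tried were the window, the 5′ end used, the nearest end only, small RNA genes, peak strength, q and single replicates. Of the windows at the strongest peaks, none overlapping a UTR by more than 30 bp and none from chromosome I was printed.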

Additional observations from a re-analysis of the deposited data

How the results depend on the processing

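Every alternative run kept the sign of both differences between chromosome V and the others and stayed within the intervals of the main values: -4.23 to -12.1 points for the pooled list and -3.01 to -17 for both replicate lists. The narrower window (500 bp before to 100 bp after the 5′ end), smaller by construction, gave 18.4% with a pooled peak, 4.12% with a peak in both replicate lists, 0 IDR genes and a median pooled signal of 28.7. The other genes' shares were not computed for this window, so it allows no comparison with them. The strongest 10000 peaks of each list, fewer by construction, gave 12% (17.6% of the other genes) and 3% (not computed for the other genes), with medians of 44 over all members and 44.1 on V. Requiring any pair of replicate summits within 200 bp gave 11.6% with a peak in both lists, and requiring it of the strongest peaks, an alternative chosen after seeing the data, gave 8.99%. The first of these ended the exclusion of 0 by the interval of the difference between V and the others (-7.02 points, -16.1 to 0.922). For both replicate lists the difference was smaller still with the narrower window (-3.01 points) and the strongest 10000 peaks (-3.2 points). Intervals were not computed for these 2 alternatives, so whether they exclude 0 was not tested. The count of IDR genes, 1, became 0 without peaks at small RNA genes and 2 with any transcript start. The 512 strongest peaks of single replicates held 2 genes each, nhr-48 and nhr-255 in replicate 2 and nhr-255 and nhr-239 in replicate 1. With 1 replicate list in place of the pooled one, 33% to 37.5% had a peak, 1.12% to 1.87% one with q under 0.05, and the difference between V and the others was -6.46 to -12.1 points. Medians of single replicates were not set against the pooled one, since signals of different lists are not on 1 scale. No paired analysis was possible because there is 1 group. With 267 genes and unknown depth, differences of a few points were not detectable.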
